A study of Mus musculus with 14 samples.

Results

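Transcripts of 10 endothelial genes were followed in the livers of 14 male TALLYHO/JnG mice: *F8*, *Stab1*, *Stab2*, *Clec4g*, *Lyve1*, *Gpr182*, *Kdr*, *Pecam1*, *Cldn5* and *Jam2*. They were taken by gene symbol from a table of 55487 genes, and all 10 of them were among the 12653 genes with enough reads for the edgeR test. The genes were chosen on measured values of these same mice, with the difference between indole and vehicle known, so that difference is given for them as a description with no test.

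TALLYHO/JnG is an inbred strain in which males develop hyperglycaemia and insulin resistance from many loci, and all mice were 8 to 12 weeks old. Of the 14 mice, 7 received vehicle (water) by oral gavage and 7 received 20 mg/kg indole, a product of bacterial tryptophan metabolism, as 2 doses per day for 7 days and 2 further doses between metabolic tests. Glucose and insulin tolerance tests were thus shared by both groups, and the right liver lobe was taken on the day after the second test. Each library came from poly(A) RNA of whole tissue, so fewer cells of a type and less RNA per cell cannot be told apart. Nothing further in the labels describes the litter, cage or batch of the mice.

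Liver sinusoids are lined by a specialised endothelium with open pores, no tight barrier and an unusually high rate of endocytosis. These cells clear hyaluronan, collagen fragments, immune complexes and modified lipoproteins from blood through scavenger receptors such as stabilins and lectins, and they respond to vascular endothelial growth factor (VEGF). They are also the main source of coagulation factor VIII, the cofactor of factor IX, which circulates bound to von Willebrand factor. Claudin-5 and the junctional adhesion molecules belong to the contacts between endothelial cells and are typical of continuous vessels.

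The number of reads on genes ran from 15197498 to 21060376 per mouse. At this depth *F8* had between 71 and 162 reads per mouse, *Clec4g* between 328 and 768, and *Lyve1* between 4 and 68. The fewest reads of *Lyve1* carry a counting error of 50%, against 11.9% for the fewest reads of *F8*. Levels are given as CPM, counts scaled to the size of the library after TMM normalisation.

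RefSeq promoter windows on GRCm38.p6, from 250 bases before to 50 bases after the start of transcription, were found for 6 of the 10 genes, namely *F8*, *Stab1*, *Stab2*, *Clec4g*, *Kdr* and *Cldn5*. Of these, 3 are shown because the results below turn on them: *F8* had the largest difference between the groups, *Clec4g* had the highest level, and *Cldn5* followed the other genes least. Each reads 5′ to 3′ on the strand of the gene, and capitals mark matches, on either strand, to the ETS core AGGAAG, the GATA core AGATAA or the TATA box TATAAA. *F8* lies at chrX:75379992-75380291 on the minus strand, *Clec4g* at chr8:3720602-3720901 on the minus strand, and *Cldn5* at chr16:18776597-18776896 on the plus strand.
F8: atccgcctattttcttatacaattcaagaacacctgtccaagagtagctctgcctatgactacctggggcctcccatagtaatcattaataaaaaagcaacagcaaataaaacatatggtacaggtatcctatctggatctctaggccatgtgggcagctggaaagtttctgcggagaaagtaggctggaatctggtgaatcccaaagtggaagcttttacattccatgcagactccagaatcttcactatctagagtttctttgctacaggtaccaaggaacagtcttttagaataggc
Clec4g: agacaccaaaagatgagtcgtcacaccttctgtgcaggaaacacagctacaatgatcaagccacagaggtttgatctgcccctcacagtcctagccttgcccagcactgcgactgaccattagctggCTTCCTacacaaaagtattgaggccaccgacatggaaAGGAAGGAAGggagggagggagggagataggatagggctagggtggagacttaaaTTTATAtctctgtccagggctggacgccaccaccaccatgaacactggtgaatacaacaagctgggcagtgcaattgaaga
Cldn5: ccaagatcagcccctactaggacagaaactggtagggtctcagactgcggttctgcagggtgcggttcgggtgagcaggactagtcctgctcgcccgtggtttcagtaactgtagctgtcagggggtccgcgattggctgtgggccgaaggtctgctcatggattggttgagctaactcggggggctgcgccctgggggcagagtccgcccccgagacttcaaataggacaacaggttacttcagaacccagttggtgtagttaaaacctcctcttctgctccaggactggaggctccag
The *Clec4g* window held 3 matches to the ETS core, of which 2 overlap each other, and 1 to the TATA box on the opposite strand, while the *F8* and *Cldn5* windows held none of the 3 motifs. Among all 32851 windows, 35.4% held the ETS core, 11.2% the GATA core and 13.6% the TATA box, and *Stab1* and *Stab2* held 1 ETS core each. G and C made up 42.3% of the *F8* window, 51.0% of that of *Clec4g* and 58.3% of that of *Cldn5*. The RefSeq start of *F8* lies 2574 bases inside the start of the Ensembl gene, so that window may not be the promoter used by the transcripts that were counted.

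The level of every gene was compared per kilobase of gene length, which the table of counts gives. In the vehicle group *Clec4g*, a lectin receptor of sinusoidal endothelium, had the highest level at 11.5±2.27 CPM per kb (SD, *n*=7). *Gpr182*, a scavenging receptor for chemokines, followed at 3.54 CPM per kb, and every vehicle-treated mouse lay below the lowest value of *Clec4g*. *Kdr*, the main VEGF receptor, had 2.62 and *Cldn5* 2.38 CPM per kb, an order that held in 5 of 7 vehicle-treated mice and in 2 of 7 indole-treated mice. *Stab1* was at 1.75 and *Pecam1*, an adhesion molecule of all endothelium, at 1.52 CPM per kb. The 4 lowest genes did not differ beyond their spread, with *Lyve1* at 0.639, *Jam2* at 0.613, *F8* at 0.541 and *Stab2* at 0.516 CPM per kb. Within these 4, *F8* exceeded *Stab2* in 4 of 7 vehicle-treated mice and in 7 of 7 indole-treated mice.

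*F8* (ENSMUSG00000031196) spans 75172715 to 75382615 on the minus strand of chromosome X of GRCm38. Its level in the vehicle group ran from 4.10 CPM through a median of 5.30 to 6.64, and in the indole group from 5.07 through 8.07 to 8.77. All indole-treated mice except G12 lay above every vehicle-treated mouse, and G12 lay within the vehicle range. The means were 5.36±0.855 and 7.62±1.31 CPM (SD, *n*=7), a log2 fold change of 0.50 with an SE of 0.140, or 1.42-fold. It ran from 0.45 without mouse G11 to 0.58 without G12, and from 0.45 to 0.51 over the 8 alternative fits that kept all mice.

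Both stabilins are scavenger receptors of the sinusoidal lining. *Stab1* (chromosome 14, 31139013 to 31168641), which takes up modified lipoproteins and matrix fragments, had 11.3, 16.7 and 23.4 CPM as lowest, median and highest values in the vehicle group and 17.2, 20.7 and 24.9 in the indole group. The groups overlapped, with 2 indole-treated mice above all vehicle-treated mice and 4 vehicle-treated mice below all indole-treated mice. The log2 fold change of *Stab1* was 0.26 (SE 0.137). *Stab2* (chromosome 10, 86841198 to 87008025), the clearance receptor for hyaluronan, had 2.37, 4.10 and 7.37 CPM against 2.14, 5.08 and 7.60. These ranges were nearly the same, and the log2 fold change of 0.07 (SE 0.253) turned negative without mouse G5 (−0.08) or G13 (−0.04) and was 0.23 without G1.

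*Clec4g* (chromosome 8, 3707064 to 3720651) had 18.2, 30.0 and 35.0 CPM in the vehicle group and 25.5, 36.1 and 50.3 in the indole group. It exceeded every vehicle value in 4 indole-treated mice, with G5 far the highest. Its means were 28.2±5.59 and 36.5±7.48 CPM (SD, *n*=7), a log2 fold change of 0.37 (SE 0.141). *Lyve1* (chromosome 7, 110850607 to 110863239), a hyaluronan receptor of lymphatic and sinusoidal endothelium, had 0.521, 1.60 and 4.34 CPM against 0.226, 1.70 and 3.64. No indole-treated mouse exceeded the vehicle range of *Lyve1*, and its coefficients of variation of 63.7% and 67.1% were the highest of the 10 genes. The log2 fold change of *Lyve1* was 0.05 (SE 0.487), ran from −0.19 without G3 to 0.40 without G6, and was also below 0 without G8, G9 or G13 and, at −0.10, in the voom fit.

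*Gpr182* (chromosome 10, 127747276 to 127751732) had 7.92, 14.3 and 18.9 CPM in the vehicle group against 11.6, 16.4 and 23.5 in the indole group. The groups overlapped broadly, with 2 indole-treated mice above the vehicle range, and the log2 fold change was 0.27 (SE 0.169), or 0.18 without G11. *Kdr* (chromosome 5, 75932827 to 75978458) had 16.9, 23.7 and 28.6 CPM against 19.8, 29.6 and 33.4. In 4 indole-treated mice *Kdr* exceeded its vehicle range, and its log2 fold change was 0.23 (SE 0.128).

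The 3 genes of endothelial contacts had log2 fold changes between 0.12 and 0.48. *Pecam1* (chromosome 11, 106654217 to 106750628) had 7.39, 9.67 and 11.9 CPM in the vehicle group and 8.51, 9.35 and 14.2 in the indole group, with a median that was lower in the indole group and a log2 fold change of 0.12 (SE 0.140) that was 0.03 without G3 and 0.19 without G4. *Cldn5* (chromosome 16, 18776847 to 18778262), the claudin of endothelial tight junctions, had 2.10, 3.41 and 4.17 CPM against 3.50, 4.28 and 6.74. All 7 indole-treated mice exceeded the vehicle median of *Cldn5* and 4 exceeded its whole vehicle range. The means of *Cldn5* were 3.38±0.684 and 4.70±1.15 CPM (SD, *n*=7), a log2 fold change of 0.48 (SE 0.176). *Jam2* (chromosome 16, 84774123 to 84825928), an adhesion molecule of endothelial borders, had 2.49, 3.74 and 5.20 CPM against 2.99, 4.98 and 7.33. Its groups overlapped, 2 indole-treated mice lying above the vehicle range, with a log2 fold change of 0.46 (SE 0.194).

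**Figure D1:**
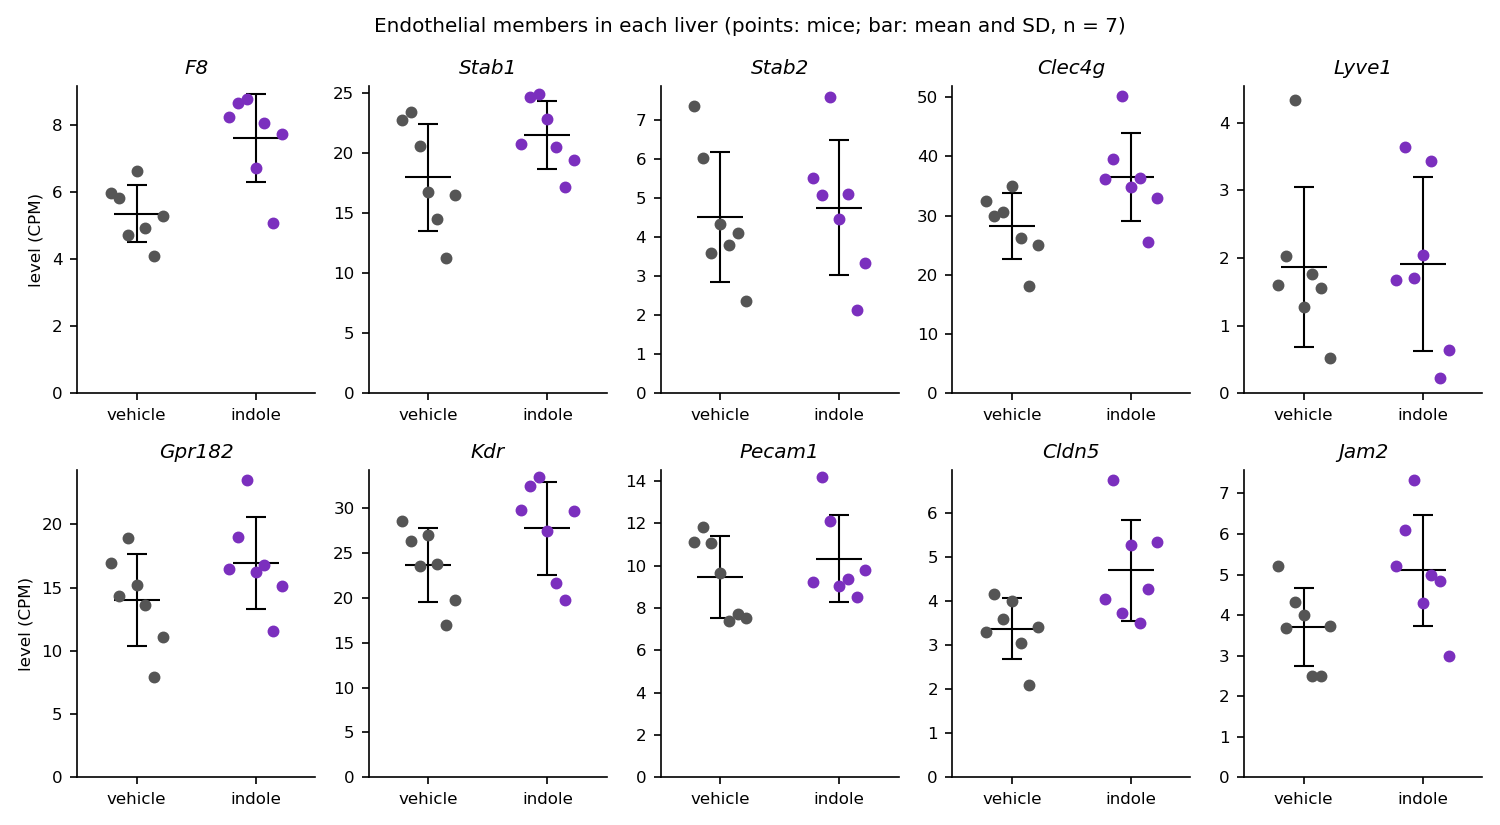
Level of each of the 10 genes in CPM (vertical axes, from 0) in the 7 vehicle-treated mice (grey points) and 7 indole-treated mice (purple points), with the mean and SD as bars. *F8* has 6 of 7 indole-treated mice above every vehicle-treated mouse, whereas the groups of *Stab2* and *Lyve1* lie over each other.

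All 10 log2 fold changes were above 0, with a median of 0.26, where the median over all genes tested was 0.00 and 51.3% of genes were above 0. Of the 10, 8 were above 0 without G13 and 9 without G3, G5, G8 or G9 and in the voom fit, and the median was 0.17 without G11. In edgeR, *F8*, *Clec4g*, *Cldn5* and *Jam2*, 4 of the 10, were among the genes with an unadjusted *p* below 0.05, as were 3.81% of all genes tested. For higher genes alone that share was 1.53%, for lower genes 2.28%, and 0% of genes tested passed after Benjamini–Hochberg adjustment. Nothing is read from these counts for the 10 genes, since they were chosen with this contrast known.

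The genes moved from mouse to mouse mostly as a block. Their summed level ran from 76.4 CPM through 124 to 135 in the vehicle group and from 99.1 through 133 to 173 in the indole group. In vehicle-treated mouse G11 all 10 genes lay below their vehicle mean, with a median log2 deviation of −0.485, and 7 of the 10 had their lowest vehicle value there. Indole-treated mouse G12 was the lowest of its group for 8 genes, with 2 of 10 above the vehicle mean. At the other end, all 10 genes were above the vehicle mean in indole-treated mice G5 (median deviation 0.615) and G3 (0.556), and in vehicle-treated mouse G4 (0.244).

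**Figure D2:**
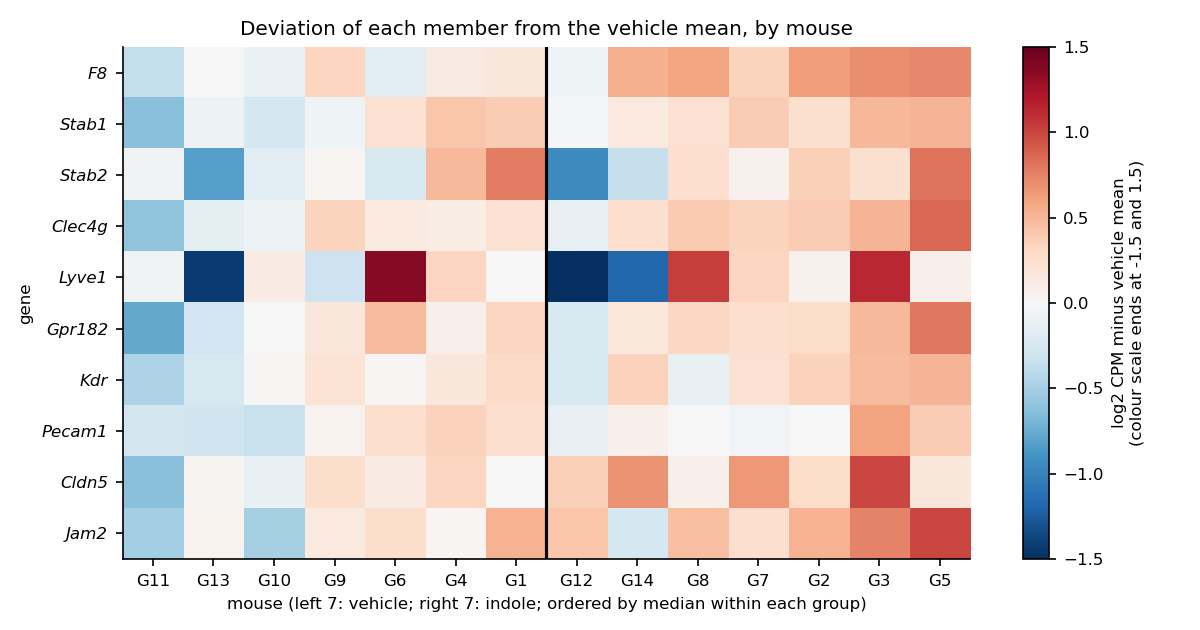
Difference of log2 CPM from the vehicle mean for each of the 10 genes (rows) in each mouse (columns, 7 vehicle-treated left of the line and 7 indole-treated right of it, ordered by their median), in colours from blue (lower) to red (higher) that saturate at the ends of the scale. Mouse G11 is blue in all 10 rows, mice G3 and G5 are red in all 10, and *Lyve1* departs most often from the colour of its column.

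Covariation within each group does not use the difference between the groups, so it was tested for the 45 pairs of genes in each group, with an exact permutation test over the 5040 pairings of 7 mice and adjustment over the 90 tests. In vehicle-treated mice 44 of the 45 pairs had a positive Pearson *r*, with a median of 0.65 and a range from −0.24 to 0.93. In indole-treated mice 41 pairs were positive, with a median of 0.69 and a range from −0.26 to 0.997. The median was 0.45 and 0.64, respectively, without the 2 mice farthest from the median of the first gene of each pair. An unadjusted exact *p* below 0.05 was found for 15 vehicle pairs and 17 indole pairs.

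A single pair passed after adjustment, *Clec4g* with *Gpr182* in indole-treated mice, where *r* was 0.997 (exact *p*=0.000198, adjusted *p*=0.0179) and Spearman's rho was 1 (exact *p*=0.000397, adjusted *p*=0.0357). Both genes ranked the 7 mice identically, and *r* was 0.985 without the 2 farthest mice and at least 0.994 without any 1 mouse. In vehicle-treated mice the same pair had *r* of 0.911 (exact *p*=0.00794, adjusted *p*=0.0873) and rho of 0.857 (exact *p*=0.0238, adjusted *p*=0.126), with *r* falling to 0.429 without the 2 farthest mice. None of the 45 pairs passed in the vehicle group after adjustment.

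*F8* went with the other genes in both groups, with a median *r* of 0.61 to the other 9 in vehicle-treated mice and 0.75 in indole-treated mice. Its *r* to *Clec4g* was 0.844 in the vehicle group (exact *p*=0.0147, adjusted *p*=0.103; rho 0.750, exact *p*=0.0663, adjusted *p*=0.199) and 0.856 in the indole group (exact *p*=0.00873, adjusted *p*=0.0873; rho 0.929, exact *p*=0.00675, adjusted *p*=0.126). Without the 2 farthest mice these were 0.393 and 0.867, so the vehicle value rests on those mice. The lowest *r* of *F8* was −0.24, to *Lyve1*, in the vehicle group and 0.03, to *Cldn5*, in the indole group.

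*Cldn5* had the widest gap between the groups, with a median *r* to the other 9 genes of 0.75 in vehicle-treated and 0.03 in indole-treated mice. Its *r* to *Clec4g* was 0.88 and −0.11, a difference with an exact *p* of 0.0414 over 3432 relabellings of the mice and an adjusted *p* of 0.743 over 45 pairs. Of these 45 differences, 3 had an unadjusted *p* below 0.05 and 0 passed after adjustment, so a difference in covariation between the groups was not shown.

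**Figure D3:**
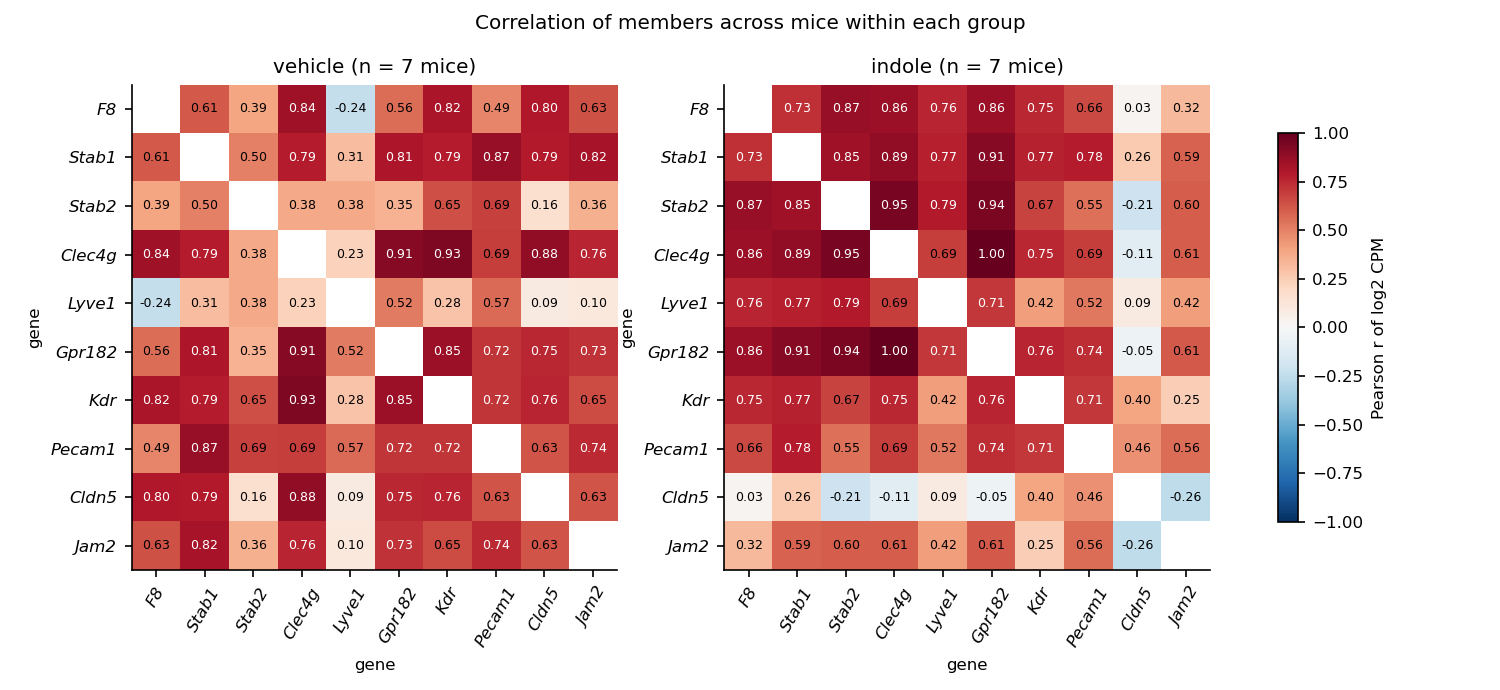
Pearson *r* of log2 CPM for each pair of the 10 genes across 7 vehicle-treated mice (left) and 7 indole-treated mice (right), printed in each square and coloured from blue (−1) to red (1). *Clec4g* and *Gpr182* reach 0.997 on the right, rounded in the square, and *Cldn5* has a median of 0.75 on the left and 0.03 on the right.

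The 10 genes were compared with lists of marker genes that left them out. All 16 sinusoidal markers and 22 of 24 markers of all endothelium were tested, and none of the 40 was at 0 in every mouse. Over the 14 mice, with group means removed, the median *r* of a marker to the mean of the 10 genes was 0.76 for sinusoidal and 0.76 for all endothelium, against −0.01 for all genes. It was 0.74 for 7 periportal endothelial genes, 0.52 for 7 pericentral ones, 0.63 for 12 stellate cell markers, 0.11 for 12 Kupffer cell markers, −0.03 for 5 erythroid genes and −0.15 for 8 hepatocyte markers. Among the remaining endothelial lists the median was 0.38 for 5 genes of large vessels and lymphatics, 0.60 for 12 genes of VEGF, angiopoietin and Notch signalling, 0.17 for 18 junction genes (7 below 0), 0.14 for 13 scavenging and hyaluronan genes (5 below 0) and −0.17 for 15 genes of factor VIII handling (10 below 0). Against the mean of the other 9, *Clec4g* had an *r* of 0.91, *Gpr182* 0.89, *Stab1* 0.87, *Kdr* 0.84, *Pecam1* 0.83, *F8* 0.76, *Stab2* 0.68, *Jam2* 0.63, *Lyve1* 0.52 and *Cldn5* 0.41. These correlations share libraries and scaling and are given as descriptions. With medians of 0.76 for sinusoidal markers, 0.76 for all endothelium and 0.74 for periportal genes, they do not tell sinusoidal from other endothelium.

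**Figure D4:**
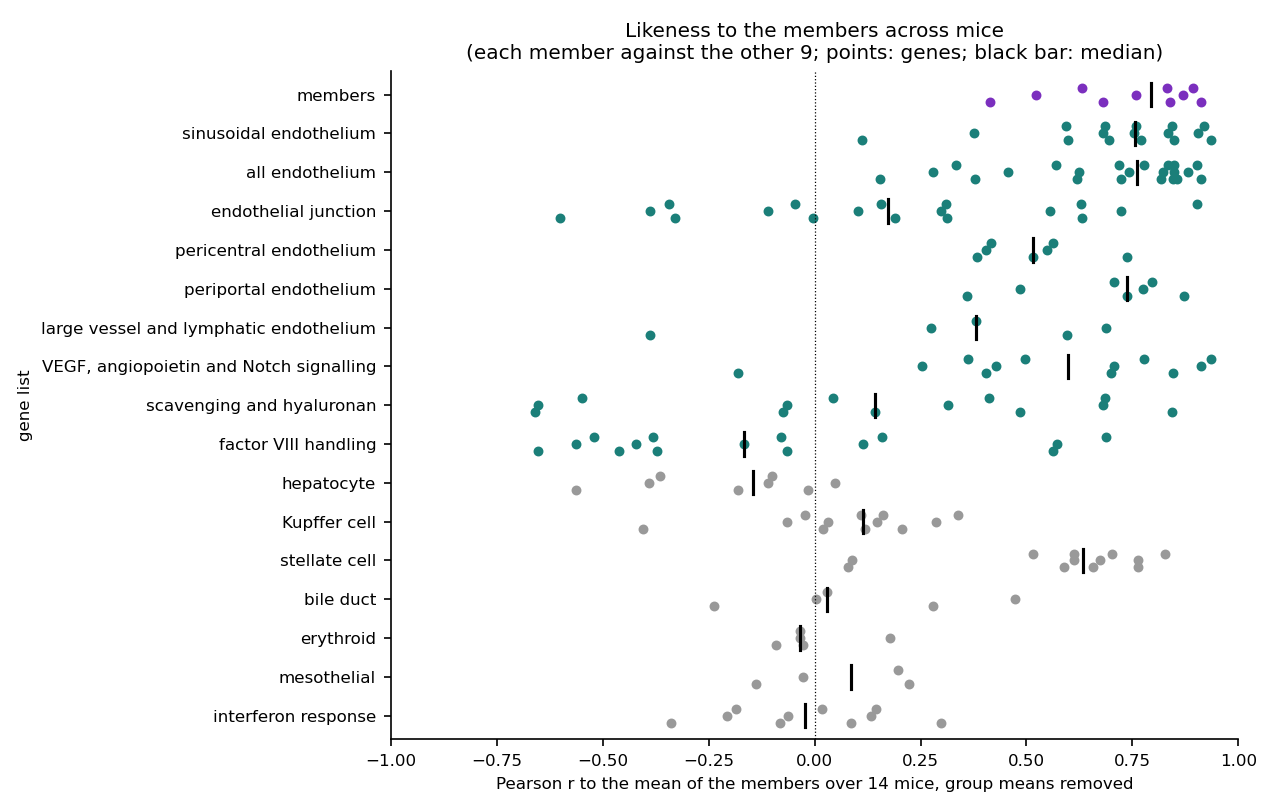
Pearson *r* over 14 mice, with group means removed, between each gene and the mean of the 10 genes (horizontal axis; each of the 10 against the other 9), for the 10 genes (purple), endothelial lists (green) and other lists (grey), with the median as a black bar. The sinusoidal and all endothelium lists have medians of 0.76, and those of hepatocyte, erythroid and interferon genes lie between −0.15 and −0.02.

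The genes most like *F8* over the 14 mice were *Etv1*, an ETS transcription factor (*r* 0.92), *Slc25a4*, the mitochondrial ADP/ATP carrier (0.89), *Timp3*, an inhibitor of matrix proteases (0.88), *Fbxl7* (0.87) and *Plau*, the urokinase gene (0.87). *Etv1*, *Fbxl7* and *Plau* had medians below 1 CPM in both groups. Those most like the mean of the 10 genes were *Mylip* (0.94), *Flt4*, the third VEGF receptor (0.94), *Timp3* (0.93), *Oit3* (0.92) and *Tek*, the angiopoietin receptor (0.91). The 38 tested markers of sinusoidal and all endothelium made up 0.300% of genes, and 10 of them were among the 100 genes most like *F8* and 18 among the 100 most like the mean, which is 26.3% and 47.4% of the markers.

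Other endothelial genes were read from the same edgeR fit, on lists that left the 10 genes out. Of the 38 markers of sinusoidal and all endothelium, 34 were higher in indole-treated mice and 4 lower, with a median log2 fold change of 0.26. Of these, 6 (15.8%) had an unadjusted *p* below 0.05 and were higher, against 1.53% of all genes, and 0 were lower, against 2.28%, while 0 passed after adjustment (0% of all genes). The lists were chosen with earlier results of these data known. Both had a median *r* of 0.76 to the mean of the 10 genes. The markers are therefore not independent of each other or of the 10 genes, and these counts are given as a description. The count of 6 became 2 without G5, 3 without G11 or G13, 4 without G3, G7 or G10, 9 without G9, 10 without G1 and 11 without G12. Their summed level, with the 2 untested markers, ran from 417.6 through 573 to 644 CPM in the vehicle group and from 479 through 613 to 826 in the indole group, a mean difference of 0.22 on the log2 scale, beside 0.29 for the 10 genes.

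The 6 genes were *Ehd3*, *Eng*, *Ptprb*, *Clec14a*, *Ramp2* and *Icam2*, each with an adjusted *p* of 0.998 in edgeR. *Ehd3*, an endocytic recycling gene of sinusoidal endothelium, had 41.7, 50.7 and 61.1 CPM as lowest, median and highest values in the vehicle group and 49.9, 60.8 and 87.2 in the indole group, with a difference of 0.27 on the log2 scale (SE 0.112). *Eng*, the endoglin co-receptor of BMP signalling, had 53.0, 56.7 and 69.9 CPM against 49.0, 75.8 and 88.3. The indole group thus held both the lowest and the highest mouse. *Icam2*, an endothelial adhesion molecule, had the largest log2 fold change, 0.68 (SE 0.240), on 16 to 64 reads per mouse. *Ramp2*, the adrenomedullin receptor subunit, had 0.49 (SE 0.191), *Clec14a* 0.34 (SE 0.135) and *Ptprb*, the phosphatase of *Tek* and *Cdh5*, 0.31 (SE 0.136).

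The most abundant sinusoidal marker, *Aqp1*, a water channel, had a log2 fold change of 0.28 (SE 0.157), and *Flt4* had 0.35 (SE 0.182). Neither had an unadjusted *p* below 0.05, and the same was true of *Gata4*, a transcription factor that specifies sinusoidal endothelium, at −0.18 (SE 0.104).

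Genes of the zones of the endothelium were read in the same way. All 7 tested pericentral genes, which include *Wnt2* (log2 fold change 0.39, SE 0.212), *Rspo3* (0.20, SE 0.168) and *Fabp4* (0.33, SE 0.168), were above 0, with a median of 0.33 and 0 with an unadjusted *p* below 0.05. Of 7 periportal genes 3 were above 0 and 4 below, with a median of −0.04, and *Ltbp4*, the most abundant, was at −0.04. Of 5 tested genes of large vessels and lymphatics, 2 were above 0 and 3 below, with a median of −0.19, and *Plvap*, the most abundant, was at 0.06. Whether the zones differed from each other was not tested.

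Ligands and receptors of VEGF, angiopoietin and Notch signalling lay near all genes, with 7 of 12 above 0 and a median of 0.07. The ligand *Vegfa* was at 0.09 (SE 0.208), beside 0.23 for its receptor *Kdr*. Of 18 genes of endothelial junctions, 5 were above 0 and 13 below, with a median of −0.09. *Icam2* was the 1 gene of these lists with an unadjusted *p* below 0.05, and *Ctnnb1*, the most abundant junction gene, was at −0.02. *Pecam1*, *Cldn5* and *Jam2* are thus 3 contact genes above 0 beside a junction list with a median below 0.

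Other scavenger and hyaluronan genes were mixed, with 7 of 13 above 0 and a median of 0.01. *Scarf1*, a scavenger receptor of endothelial cells, was higher, at 0.50 (SE 0.233), and *Scarb1*, the receptor for high-density lipoprotein that hepatocytes also express, was lower, at −0.21 (SE 0.082), each with an unadjusted *p* below 0.05 and an adjusted *p* of 0.998 in edgeR. *Lrp1*, the most abundant, was at −0.07 (SE 0.0888).

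Genes that secrete, carry, activate or clear factor VIII were listed together with other coagulation genes. The list lay around a log2 fold change of 0, beside 0.50 for *F8*. Of its 15 genes, 8 were above 0 and 7 below, with a median of 0.03, and 0 had an unadjusted *p* below 0.05. *Lman1* and *Mcfd2*, the cargo receptor that takes factors V and VIII out of the endoplasmic reticulum, were at 0.00 (SE 0.0849) and 0.08 (SE 0.0847). *Vwf*, the carrier in plasma, had 2.89, 4.56 and 6.59 CPM in the vehicle group and 3.30, 5.88 and 8.40 in the indole group, with a difference of 0.35 on the log2 scale (SE 0.211). *F2*, the thrombin gene of hepatocytes and the most abundant of the list, was at 0.03 (SE 0.073).

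**Figure D5:**
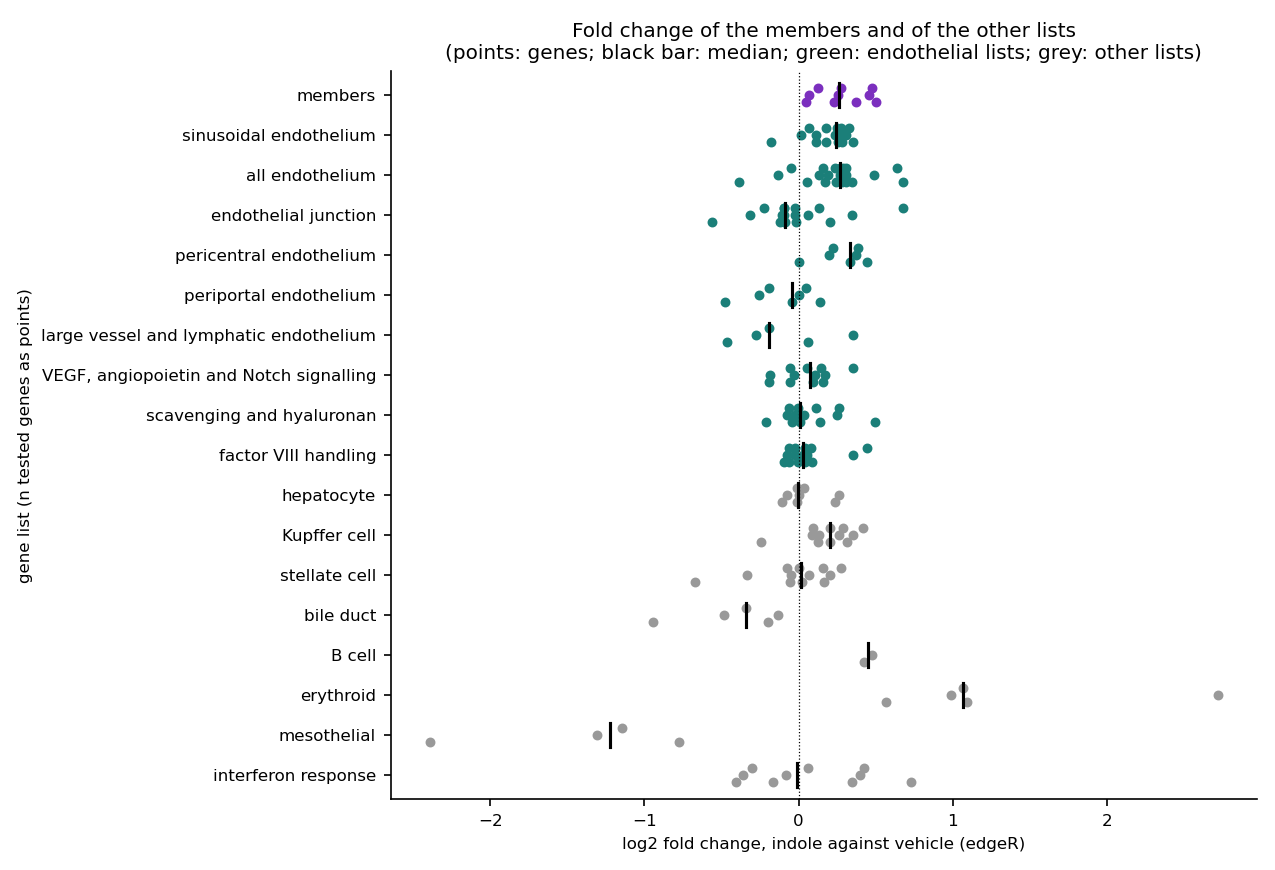
Log2 fold change of indole against vehicle (horizontal axis, edgeR) for each tested gene of the 10 followed here (purple), of endothelial lists (green) and of other lists (grey), with the median of each as a black bar. The 10 genes, the sinusoidal, all endothelium and pericentral lists have medians between 0.25 and 0.33, and the junction, periportal and factor VIII handling lists lie around 0.

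Set against the summed level of the 40 sinusoidal and all endothelium markers in the same mouse, a scale chosen once the values were known, the 10 genes split. *F8* had a mean log2 difference of 0.28 (SD within groups 0.152), with 4 of 7 indole-treated mice above every vehicle-treated mouse. *Cldn5* was at 0.25 (SD 0.303) with 4 such mice, *Jam2* at 0.24 (SD 0.305) with 5 and *Clec4g* at 0.15 (SD 0.102) with 3. *Kdr* was at 0.00 with 2 such mice. With 0 such mice, *Stab1* and *Gpr182* were at 0.07, *Pecam1* at −0.09, *Stab2* at −0.16 and *Lyve1* at −0.40 (SD 1.10).

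Markers of other cell types also moved with the groups. All 5 erythroid genes had an unadjusted *p* below 0.05 and were higher, their sum running from 204 to 384 CPM in the vehicle group and from 263 to 1092 in the indole group. With group means removed, the *r* of these 5 genes to the mean of the 10 genes was between −0.09 and 0.18. All 4 tested mesothelial genes were lower, 2 of them with an unadjusted *p* below 0.05, and their list summed to between 5.15 and 19.9 CPM in the vehicle group and between 1.05 and 12.5 in the indole group. Kupffer cell markers summed to 530.6 CPM in indole-treated mouse G8, against 110 to 288 in the other mice, while the summed 10 genes of G8 were at 130 CPM, within the range of both groups. Of the other lists, 12 stellate cell markers had a median log2 fold change of 0.02 (7 above 0 and 5 below), with sums of 407 to 497 CPM in the vehicle group and 289 to 594 in the indole group, and *Col1a1*, a fibrillar collagen, at −0.67 (SE 0.256). All 5 bile duct markers were below 0, with sums of 13.9 to 23.0 against 12.8 to 18.3 CPM, and *Krt19*, a keratin of bile ducts, was at −0.94 (SE 0.291). The medians were 0.20 for Kupffer cell markers (11 of 12 above 0), 0.45 for the 2 tested B cell markers, 0.00 for hepatocyte markers (4 of 8 above 0) and −0.01 for interferon response genes (5 of 10 above 0). *Col1a1*, *Krt19* and the hepatocyte gene *Ttr*, at 0.24 (SE 0.0843), had unadjusted *p* values below 0.05 and adjusted values of 0.998 in edgeR. The part of these cell types in the levels of the 10 genes was not tested. The correlations to the mean of the 10 genes had group means removed, so they do not bear on the difference between the groups. T and NK cell and neutrophil markers were near 0, with no gene tested and list sums of at most 5.05 and 1.72 CPM.

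Some genes lie over others on the opposite strand, and the sources used here do not state whether reads were counted by strand. *F8* overlaps *Fundc2*, *Stab1* overlaps *Nt5dc2* and *Gpr182* overlaps *Zbtb39*, each with more than 100 reads over all mice. *Fundc2* had a log2 fold change of 0.07 (SE 0.174) and an *r* to *F8* of 0.27 in vehicle-treated and −0.12 in indole-treated mice. *Nt5dc2* was at 0.17 (SE 0.170), with an *r* to *Stab1* of 0.08 and −0.16, respectively. *Zbtb39* was at 0.01 (SE 0.160), with an *r* to *Gpr182* of 0.31 and −0.17.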

How the data were processed

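Liver poly(A) RNA of 14 TALLYHO mice was sequenced as strand-specific libraries. Alignment was to GRCm38 (HISAT2, Ensembl release 102), and the authors deposited raw counts of unique reads per gene. The counting tool is not given in the sources used here. Gene length is that of the deposited table. Groups came from the labels.

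Counts were compared with edgeR 4.0.16 (TMM, filterByExpr, robust quasi-likelihood, Benjamini–Hochberg adjustment) in R 4.3.3. A standard error is the log2 fold change divided by the square root of *F*. Correlations used log2 CPM (prior count 2), with exact permutation tests in numpy 2.4.6 and ranks from scipy 1.17.1. On simulated counts of 12653 genes, edgeR recovered 158 of 200 genes changed by 1 on the log2 scale and called 9 others. Alternatives were DESeq2 1.42.0, limma 3.58.1 with voom and quality weights, other scalings and filters, a fit that was not robust, and leaving out each mouse. The labels give no batch or pairing.

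The 10 genes, the 19 marker lists and the promoter motifs were chosen with earlier results of these data known. Of the list genes, the text names the most abundant of a list and those with an unadjusted *p* below 0.05. Some others (*Gata4*, *Wnt2*, *Rspo3*, *Vwf*, *Lman1*, *Mcfd2*) and the fold change of *Flt4* were given for known roles after the values were seen. The 5 genes most like *F8* and the 5 most like the mean, among them *Flt4*, *Oit3* and *Tek*, were taken by *r*. The *p* values of edgeR set the difference between the groups against the spread between these mice. Exact *p* values are the share of pairings or relabellings of these mice that gave a value at least as extreme.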

Additional observations from a re-analysis of the deposited data

Results flagged for a closer look

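Of 58 comparisons of the extreme mouse with the rest of its group, 5 had a gap to the nearest mouse larger than Dixon's 95% value for 7 (0.568) when divided by the range of the group, where chance gives about 1 in 20. Among the 10 endothelial genes this was *Lyve1* alone, with 4.34 CPM in vehicle-treated mouse G6 against 2.03 in the next mouse, a share of 0.604. The other 4 were sums of marker lists. In indole-treated mouse G8 the share was 0.775 for Kupffer cell markers (530.6 against 220 CPM), 0.780 for T and NK cell markers (5.05 against 1.55 CPM) and 0.921 for interferon response genes (461.8 against 105 CPM). For neutrophil markers it was 0.625 in vehicle-treated mouse G11 (1.72 against 0.852 CPM), the mouse with the lowest summed level of the 10 endothelial genes.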

How the results depend on the processing

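Of the recomputed values, 376 moved by less than the limit, which was 1.5 times for a count and 1 SD between mice for a fold change or between pairs for a median *r*, and 26 moved by more. A fold change could cross 0 within that limit. Without a filter on low counts, 667 genes were higher and 669 lower at an unadjusted *p* below 0.05, against 194 and 288. DESeq2 gave 315 higher genes when run on all genes with a read, and 1 gene after adjustment, against 0, when run on the same genes. Among all 100 tested genes of the endothelial lists, 7 higher and 1 lower had an unadjusted *p* below 0.05. These became 3 to 13 higher and 0 to 3 lower when each mouse was left out in turn, and voom gave 2 lower. After regression on the hepatocyte markers, 1 vehicle pair and 3 indole pairs passed after adjustment, against 0 and 1, and leaving out each mouse gave 0 to 5 indole pairs. The causes were not tested, but with 1 mouse left out too few pairings remain for a lone pair to pass adjustment, so these counts say nothing about the stability of the pair. Fold changes of 8 of the 10 genes stayed above 0 in every fit, with or without a mouse left out, and those of *Stab2* and *Lyve1* did not. Relative to the other endothelial genes *Pecam1* was below 0 as well. No scaling moved the median of all genes by more than 0.01. Without division by length, *F8* ranked 6, *Stab1* 3, *Stab2* 7, *Lyve1* 10, *Gpr182* 4, *Kdr* 2, *Pecam1* 5 and *Cldn5* 9 by level. No paired analysis was possible because the labels give no number that a vehicle-treated and an indole-treated mouse share. Depth weighs most on *Lyve1*, with between 4 and 68 reads per mouse, although its coefficients of variation of 63.7% and 67.1% are above the counting error of 50% at its fewest reads.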
